A study of Mus musculus with 4 samples.

Results

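The genes of the insulin-like growth factor (IGF) family were compared between endothelial cells (ECs) of the dura mater, the outer membrane around the brain, and ECs of the brain parenchyma. The 10 genes are the ligands Igf1 and Igf2, the receptors Igf1r and Insr, and the binding proteins Igfbp2, Igfbp3, Igfbp4, Igfbp5, Igfbp6 and Igfbp7, out of 23282 symbols listed. They were found by symbol, and this set of symbols was chosen from earlier values of the same dura mater against brain comparison. Their differences between tissues are therefore given as a description. Test calls from fits across all genes are listed for them, but nothing is read from these calls. Each tissue gave 2 libraries, from C57BL/6J mice aged 8 weeks for which the labels list no treatment. The study sorted CD31+ CD45- TER-119- cells by flow cytometry, and asked which molecules set apart the dura mater ECs, which formed more sprouts in culture. Brain ECs alone passed an additional magnetic enrichment on CD31, so that step and the tissue cannot be told apart. The number of mice behind each library is not given in the sources used here, and the spread between libraries may be technical.

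IGF-I and IGF-II are secreted growth factors that signal through the IGF-I receptor, a tyrosine kinase related to the insulin receptor. The IGF binding proteins (IGFBPs) are secreted carriers that hold the ligands in the extracellular space, keep them from the receptor or hand them over when cleaved, and some of them bind matrix or cell surfaces in their own right. IGFBP7 binds IGFs only weakly and is known as a product of vascular endothelium, while the insulin receptor carries insulin signals in most cells. Fibroblasts of connective tissue, the meninges included, are also a known source of IGFBPs and of IGF-II.

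Library totals ranged from 13518973 to 16096203 counts. Replicates differed widely: across the 9347 genes tested, which are not independent replicates, Pearson's r of log2 CPM was 0.473 between the brain and 0.594 between the dura mater libraries. CPM stands for counts scaled to a common normalized library size. The sort markers Pecam1 (CD31), with 8390 to 23619 counts, and Cdh5, with 4708 to 7931 counts, were present in each library. Ptprc (CD45) had 1 to 4 counts. The brain EC list (6 markers, such as Slc2a1 and Mfsd2a) summed to 22270 and 21180 CPM in brain ECs, against 2441 and 2338 CPM in the dura mater. The list of peripheral or fenestrated ECs (5 markers, such as Plvap) went the other way, from 0.345 and 1.66 CPM to 3251 and 3443 CPM. In sorted bulk RNA, fewer cells of a type and less RNA per cell cannot be told apart.

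Among the binding proteins, Igfbp3, Igfbp4 and Igfbp5 were well counted in dura mater ECs and far lower in brain ECs. Igfbp4 (chromosome 11, 99041244 to 99054392, plus strand, GRCm38, GENCODE M21), which binds IGFs and is released from them by the protease PAPP-A, had 394 (replicate 1) and 212 (replicate 2) counts in brain ECs, against 10925 and 17500 in the dura mater. The mean was 21.6 ± 7.89 CPM in brain ECs against 943 ± 182 CPM in the dura mater (SD, n = 2), 43.7-fold apart. Its log2 fold change, fitted by edgeR as dura mater over brain, was 5.44 with a standard error (SE) of 0.51. The lower dura mater library stood 30-fold above the higher brain library, so the groups were far from overlapping.

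Igfbp5 (chromosome 1, 72857932 to 72874884, minus strand), which binds matrix as well as IGFs, was at the edge of detection in brain ECs, with 8 and 3 counts. In dura mater ECs it had 2341 and 4409 counts, or 222 ± 67.5 CPM (n = 2) against 0.389 ± 0.230 CPM. The ratio of the summed counts, scaled for library size, was 572, with a 95% interval from 320 to 1150 that covers counting error only. Its log2 fold change in the edgeR fit, with a prior count of 2, was 8.71 (SE 1.04).

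Igfbp3 (chromosome 11, 7206086 to 7213923, minus strand), the main carrier of IGFs in serum, differed less and was less even in the brain. It had 3251 and 701 counts in brain ECs against 11907 and 19341 in the dura mater, or 139 ± 121 against 1036 ± 210 CPM (n = 2). The brain replicates were 4.23-fold apart, and the dura mater replicates 1.33-fold. The groups did not overlap, but the log2 fold change of 2.90 (SE 0.71) became 4.23 without brain replicate 1 and 2.14 without brain replicate 2.

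Igfbp2 and Igfbp6, carriers that prefer IGF-II, were counted almost only in dura mater ECs, at low levels. Igfbp2 (chromosome 1, 72824503 to 72852474, plus strand) had 0 and 2 counts in brain ECs against 218 and 362 in the dura mater, or 19.2 ± 4.18 CPM in the latter. Igfbp6 (chromosome 15, 102144362 to 102149511, plus strand) had 1 and 0 counts against 480 and 356, or 28.8 ± 9.89 CPM in dura mater ECs. With so few brain counts the ratios are imprecise. For Igfbp2 the ratio was 270 (95% counting interval 74.5 to 2240), with a log2 fold change of 6.50 (SE 3.17), and for Igfbp6 it was 779 (140 to 30800), with 7.38 (SE 2.95).

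Igfbp7 (chromosome 5, 77349240 to 77408041, minus strand) was the exception among the binding proteins. It had 25912 and 15864 counts in brain ECs against 21582 and 45401 in the dura mater. The groups overlapped, since brain replicate 1 (1788 CPM) lay above dura mater replicate 1 (1609 CPM), and the log2 fold change of 0.56 had an SE of 0.38. The last 85 exon bases of Igfbp7 (7.03% of its exon length) lie opposite the end of Polr2b, a polymerase subunit gene with 13043 to 27776 counts. The library kit reads 3′ ends, and the use of strand in counting is not stated, so reads from that stretch cannot be assigned with certainty.

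**Figure D1:**
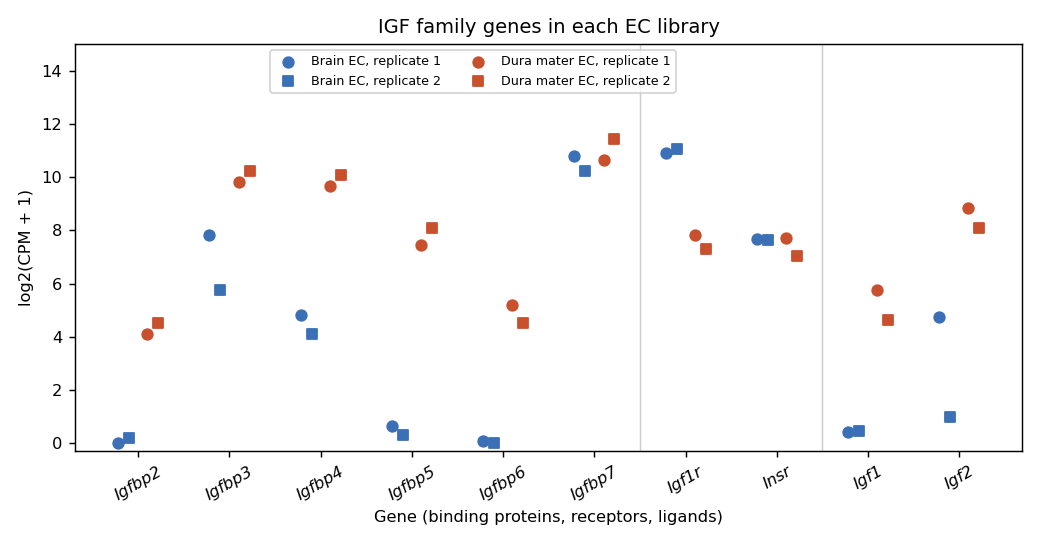
Level of each gene in each library as log2(CPM + 1), with brain EC libraries in blue and dura mater EC libraries in red (circles for replicate 1, squares for replicate 2). Igfbp2 to Igfbp6, Igf1 and Igf2 were higher in both dura mater libraries, Igf1r was lower in both, and Igfbp7 and Insr overlapped.

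Igfbp7 made up most of the IGFBP counts in brain ECs and about as much as the others together in dura mater ECs, a comparison within each library that does not depend on scaling. Of the 29566 and 16782 counts on the 6 IGFBP genes in brain ECs, Igfbp7 held 87.6% (95% Wilson interval 87.3 to 88.0) and 94.5% (94.2 to 94.9). In dura mater ECs, with 47453 and 87369 counts on these genes, it held 45.5% (45.0 to 45.9) and 52.0% (51.6 to 52.3). The other 5 genes together made up 252 and 69.4 CPM in brain ECs against 1930 and 2570 CPM in the dura mater. Igfbp3 held 11% (10.6 to 11.4) and 4.18% (3.88 to 4.49) of the IGFBP counts in brain ECs, and 25.1% (24.7 to 25.5) and 22.1% (21.9 to 22.4) in dura mater ECs. Igfbp4 went from 1.33% (1.21 to 1.47) and 1.26% (1.11 to 1.44) to 23.0% (22.6 to 23.4) and 20% (19.8 to 20.3). Igfbp5 held 4.93% (4.74 to 5.13) and 5.05% (4.90 to 5.19) in dura mater ECs. The intervals cover counting error only, and the shares are of counts, not of protein.

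**Figure D2:**
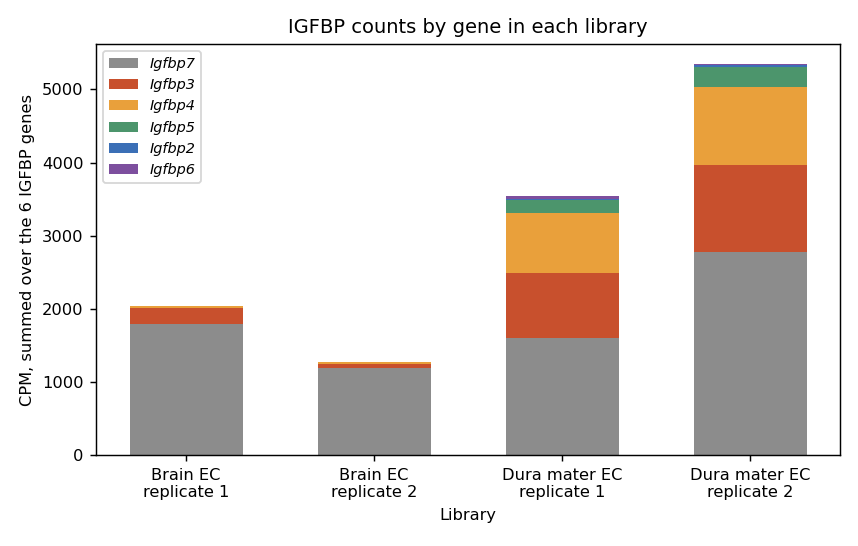
CPM summed over the 6 IGFBP genes in each library, with the part of each gene stacked from 0. Igfbp7 (grey) makes up most of the brain EC bars, while Igfbp3, Igfbp4 and Igfbp5 together make up about as much as Igfbp7 in the dura mater EC bars.

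The receptors parted in the 2 tissues. Igf1r (chromosome 7, 67952827 to 68233668, plus strand) was well counted in brain ECs, with 27453 and 28245 counts, and had 3045 and 2570 counts in dura mater ECs. Its mean was 2015 ± 171 CPM in brain ECs against 192 ± 49.2 CPM in the dura mater (n = 2), 10.5-fold lower in the latter. The log2 fold change was −3.39 (SE 0.36), and the lower brain library was still 8.34-fold above the higher dura mater library. Insr (chromosome 8, 3122061 to 3279617, minus strand), the closest relative of Igf1r here, had 2917 and 2640 counts in brain ECs against 2831 and 2119 in the dura mater. Its groups overlapped, with a log2 fold change of −0.23 (SE 0.53) that turned to 0.055 without dura mater replicate 2. Within a library, the count ratio of Igf1r to Insr was 9.41 and 10.7 in brain ECs against 1.08 and 1.21 in the dura mater.

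The ligands were counted mainly in dura mater ECs. Igf2 (chromosome 7, 142650766 to 142666816, minus strand), an imprinted growth factor, had 372 and 13 counts in brain ECs against 6175 and 4405 in the dura mater, or 13.3 ± 17.4 against 365 ± 135 CPM (n = 2). The groups did not overlap, but the brain replicates were 26.1-fold apart, and the log2 fold change of 4.76 (SE 1.44) became 8.31 without brain replicate 1 and 3.77 without brain replicate 2. Igf1 (chromosome 10, 87858265 to 87937042, plus strand), the ligand that growth hormone induces in liver, had 5 and 5 counts in brain ECs against 714 and 386 in the dura mater, or 38.4 ± 20.9 CPM in the latter. The ratio was 103 (95% counting interval 55.6 to 214), with a log2 fold change of 6.27 (SE 2.70). Part of the Igf2 exons is shared with other gene models, 62.8% of their length with the model Gm49394 on the same strand, which is no symbol of the tables, and 1.71% with the antisense gene Igf2os (0, 0, 0 and 74 counts). How shared reads were counted is not stated.

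**Figure D3:**
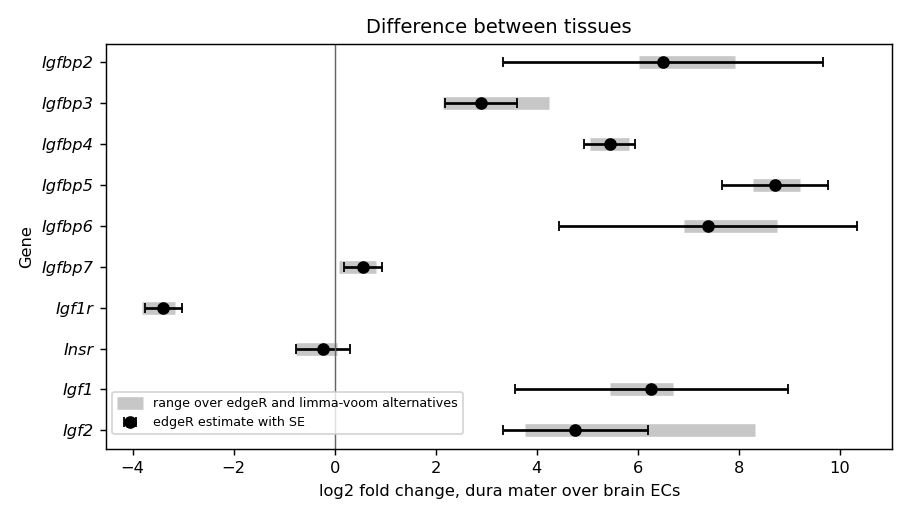
Log2 fold change of each gene, dura mater over brain ECs, with the SE of the edgeR fit as bars and the range over the edgeR and limma-voom alternatives in grey. The bars of Igfbp2, Igfbp6 and Igf1, each with 5 or fewer counts per brain library, are wide, and those of Igfbp4 and Igf1r are narrow. Igfbp5, with 8 and 3 counts in the brain libraries, has an SE of 1.04.

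In all, 7 of the 10 genes were higher in both dura mater libraries than in either brain library, a pattern that 26.2% of all genes tested showed. Igf1r was lower in both, as were 16.9% of the genes tested. All 10 genes passed edgeR's filter on low counts, 4 of them (Igfbp2, Igfbp5, Igfbp6 and Igf1, each with no more than 10 counts in either brain library) only through the dura mater libraries. In the fit across all genes, edgeR's quasi-likelihood test placed Igfbp4, Igfbp5 and Igf1r under an adjusted p of 0.05, 3 of the 10 genes, where 0.610% of all genes were called. DESeq2 called 8 of the 10, where it called 12.2% of the genes with an adjusted p. Nothing is read from these counts, since the genes were chosen with this difference known. The edgeR call of Igfbp5 was lost without dura mater replicate 2, while Igfbp3 and Igf2 were called in addition when either brain replicate was left out, in fits where the remaining library of that tissue was assumed to vary like those of the other. Limma-voom called 2 of the 10, Igfbp3 and Igf1r.

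Counts were also set against endothelial content, as a description. Per 1000 counts summed over 8 pan-endothelial markers (Pecam1, Cdh5, Kdr, Tek, Erg, Egfl7, Emcn and Tie1), Igfbp4 had 4.84 and 2.20 counts in brain ECs against 136 and 137 in the dura mater. Igf1r had 337 and 293 against 37.9 and 20.1 on that scale. Igfbp7 had 318 and 164 against 268 and 355, which again overlapped. The pan-endothelial list itself summed to 5614 and 7294 CPM in brain ECs against 5995 and 7843 CPM in the dura mater. Of its 8 markers, 3 were higher and 2 lower in both dura mater libraries. Their mean CPM, dura mater over brain, ran from 0.426-fold (Tek) to 1.83-fold (Tie1). With sums this close, the scale leaves large differences in place by construction, so it is no test of endothelial content. This scale also does not remove transcripts of other cells.

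Some markers of other cells were higher in dura mater ECs, as were the ligands and, except for Igfbp7, the binding proteins. The fibroblast list (8 markers) summed to 7.38 and 51.3 CPM in brain ECs against 370 and 366 CPM in the dura mater. Of these, Col1a1, Col1a2, Col3a1 and Dcn were higher in both dura mater libraries. Dpt (0, 3, 434 and 0 counts) and Col6a3 (0, 5, 2 and 204 counts) were each high in 1 dura mater library. Pdgfra (1, 1, 0 and 1 counts) and Lum (3, 3, 4 and 0 counts) were near 0 in each library. Col1a2, a collagen chain, had 4 and 31 counts in brain ECs against 1135 and 1913 in the dura mater, where Igfbp5 had 2341 and 4409. The lymphatic EC list (6 markers, 4 higher in both dura mater libraries) summed to 0.276 and 0.529 CPM in brain ECs against 255 and 399 CPM in the dura mater, with Prox1 and Lyve1 at 0 in both brain libraries. Of the mural list (10 markers), 4 were higher in both dura mater libraries, such as the pericyte channel Kcnj8 (0, 0, 468 and 410 counts), while its sum overlapped, at 637 and 1075 CPM in brain ECs against 1166 and 684 CPM in the dura mater. The sum of the macrophage or microglia list (8 markers, 1 higher and 1 lower) also overlapped, at 31.3 and 50.3 against 44.3 and 40.0 CPM. The higher marker was Cd68 (4, 3, 550 and 441 counts), and the lower was Aif1, near 0 throughout (2, 1, 0 and 1 counts). The brain sums came mainly from C1qa in replicate 1 (436 and 1 counts) and Csf1r in replicate 2 (4 and 646 counts). Of 8 neural or glial markers, 2 were higher in both dura mater libraries and Aqp4 was at 0 throughout. Their sums were 102 and 0.454 CPM in brain ECs against 225 and 19.7 CPM in the dura mater. Of 5 bone markers, 1 was higher in both dura mater libraries, and Sp7 and Bglap were at 0 throughout. Their sums overlapped, at 148 and 105 CPM in brain ECs against 166 and 135 CPM in the dura mater. Alpl (2145, 1388, 1227 and 2199 counts) made up nearly all of the brain sums. Ibsp (0, 0, 181 and 11 counts) and Runx2 (1, 0, 820 and 0 counts) were counted almost only in the dura mater. The erythroid list (5 markers, all lower in both dura mater libraries) was at 18010 and 25690 CPM in brain ECs against 1496 and 762 CPM in the dura mater. The part of such cells in the levels of the IGF genes was not tested.

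The promoters of 5 genes are shown because they belong to the binding proteins that were far apart between tissues (Igfbp3, Igfbp4, Igfbp5), the one that was not (Igfbp7) and the receptor that was lower in dura mater ECs (Igf1r). Each line holds the 120 bases before the RefSeq start site, 5′ to 3′ on the strand of the gene (GRCm38.p6, minus strand except for Igfbp4 and Igf1r), with matches to the motifs named beneath in capitals. RefSeq windows were at hand for 9 of the 10 genes, all but Insr. The RefSeq starts of Igf1r and Igfbp7 lie upstream of the GENCODE starts given above, while that of Igfbp5 lies inside the GENCODE gene.
Igfbp4, chr11:99041124-99041243: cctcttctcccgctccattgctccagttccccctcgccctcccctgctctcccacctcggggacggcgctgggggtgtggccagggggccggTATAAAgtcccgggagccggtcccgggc
Igfbp3, chr11:7213924-7214043: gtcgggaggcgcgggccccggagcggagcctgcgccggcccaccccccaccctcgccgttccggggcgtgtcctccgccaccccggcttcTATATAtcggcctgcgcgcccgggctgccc
Igfbp5, chr1:72874866-72874985: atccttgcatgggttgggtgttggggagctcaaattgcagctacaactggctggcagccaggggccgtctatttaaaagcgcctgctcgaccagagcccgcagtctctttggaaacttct
Igfbp7, chr5:77408046-77408165: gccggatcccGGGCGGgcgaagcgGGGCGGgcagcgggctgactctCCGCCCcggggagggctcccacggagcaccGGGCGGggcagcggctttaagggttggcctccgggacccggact
Igf1r, chr7:67952137-67952256: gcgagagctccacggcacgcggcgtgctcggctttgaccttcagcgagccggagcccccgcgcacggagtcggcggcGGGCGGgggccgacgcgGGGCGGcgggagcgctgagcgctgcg

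The motifs were searched on both strands of the 250 bases before each start site, with the sequences of these genes in view. TATAAA, a core promoter motif, began 28 bases before the start of Igfbp4 and was present in 12.4% of the 32851 windows of all genes. TATATA began 30 bases before the start of Igfbp3 (5.25% of windows), a variant of that motif that can overlap with it. GGGCGG, a GC box that appears as CCGCCC where it lies on the opposite strand, stood 4 times before Igfbp7 and 2 times before Igf1r (32.7% of windows). It was also found 3 times in 1 of the 2 windows of Igfbp2, and 1 and 2 times in 2 of the 4 windows of Igf2. TATAAA was also found before Igfbp6, 148 bases from the start. GTAAACA, a forkhead site, was in none of the windows of the 9 genes (3.17% of all windows). The window of Igfbp5 held no exact match to these motifs, and near matches were not searched. Of the 5 genes shown, GC content was 77.6% for Igf1r, 74.0% for Igfbp7, 73.2% for Igfbp3, 69.2% for Igfbp4 and 58.8% for Igfbp5, against a median of 52.4% over all windows. These matches describe letters and say nothing of binding.

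Neighbouring genes were also read. Igfbp2 and Igfbp5 lie tail to tail on chromosome 1, 5457 bases apart with no coding gene between them, and both were higher in dura mater ECs. Igfbp1 and Igfbp3 lie in the same way on chromosome 11, 3539 bases apart. Igfbp1, which the liver secretes, had 1, 0, 0 and 0 counts, so that only Igfbp3 of this pair was detected.

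The genes nearest in pattern to the 3 IGF family genes with the highest mean CPM were taken by the Euclidean distance of log2(CPM + 1) over the 4 libraries, as a description. Nearest to Igf1r were Prom1 (distance 0.768), a membrane protein of progenitor cells and endothelium, with 17706 and 21348 counts in brain ECs against 3175 and 2863 in the dura mater, and then the tight junction genes Cldn5 (1.09) and Lsr (1.11). Nearest to Igfbp3 were Ppap2a (0.908), a lipid phosphatase, Adamts1 (1.38), a secreted protease, and Gm13889 (1.53). Nearest to Igfbp7 were the heat shock gene Hspa1a (0.415), the actin crosslinker Actn4 (0.471) and the MHC class I gene H2-D1 (0.792), which resemble it in being high in both tissues.

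Beyond the 10 genes, a list of 86 other genes of the pathway was examined, of which 61 were tested. None passed an adjusted p of 0.05 in edgeR's quasi-likelihood test, 8 of the 61 had an unadjusted p under 0.05 (7 higher and 1 lower in dura mater ECs) beside 936 of all 9347 genes, and DESeq2 called 7, all higher, where it called 12.2% of all genes. Without overlap between the groups, 13 of the 61 genes lay higher in dura mater ECs and 11 lay lower, against the 26.2% and 16.9% of all genes given above. The list's median log2 fold change was 0.10, with 55.7% of its genes above 0, against −0.01 and 49.8% over all genes tested. Much of the upstream machinery was not counted at all. Igfals, Igfbpl1, Ins1, Ins2, Insrr and Pappa, the protease that frees IGFs from IGFBP4, were listed at 0 in each library, and Pappa2 had 1 count. The receptor substrates were hardly detected either, with 2, 0, 2 and 0 counts for Irs1 and 103 counts in dura mater replicate 1 alone for Irs2. Igf2r, which clears IGF-II, had 381 and 0 counts in brain ECs against 334 and 901 in the dura mater, with a difference that its SE exceeded (log2 fold change 1.6, SE 2.89).

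Of the IGFBP proteases and their inhibitors, 6 of 14 were tested, and 2 had a log2 fold change above 0 and 4 below (median −0.50). None of them passed the edgeR test. The groups overlapped for the proteases Htra1 (−0.51), Ctsd (−0.50) and Plat (−0.63), named after their values were seen, whose log2 fold changes were below 0. Adamts1 had 3377 and 1534 counts in brain ECs against 20015 and 15576 in the dura mater, for a log2 fold change of 2.81 (SE 0.49). The adjusted p of Adamts1 was 0.0942 in edgeR and 3.57e-05 in DESeq2. Stc1, stanniocalcin 1, an inhibitor of PAPP-A, had 872 and 114 counts against 4172 and 3833 (log2 fold change 2.98, SE 0.99, adjusted p 0.432 in edgeR and 0.0407 in DESeq2). Its log2 fold change was 4.92 without brain replicate 1 and 2.12 without brain replicate 2. Htra3, a serine protease, had 269 and 220 counts against 0 and 138 (log2 fold change −2.02, SE 3.29, edgeR adjusted p 1.00). Of 10 further proteins with an IGFBP-type domain, 7 were tested, and 5 had a log2 fold change above 0 and 2 below (median 1.23), again with none passing. Ctgf, a matricellular growth factor regulator, had 7057 and 2564 counts against 14294 and 26101 (log2 fold change 1.97, SE 0.52, edgeR adjusted p 0.286). Its relative Cyr61 had 1611 and 1230 against 2317 and 4987 (log2 fold change 1.23, SE 0.58, edgeR adjusted p 0.50). Esm1, endocan, which the study selected from these libraries for knockdown, had no counts in brain ECs and 824 and 1985 counts in the dura mater, a fold of at least 422 when 3 counts per brain library are assumed (edgeR adjusted p 0.172).

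Downstream of the receptors, the kinase cascade was counted in both tissues with no shared direction. Of its 24 genes, all tested, 11 had a log2 fold change above 0 and 13 below, with a median of −0.16. Akt1 had 9268 and 12219 counts in brain ECs against 9616 and 15867 in the dura mater, a log2 fold change of 0.11. The 3 cascade genes with the largest non-overlapping differences were all lower in dura mater ECs and did not pass. Pik3r2, a regulatory subunit of PI3-kinase, had 863 and 926 counts against 0 and 235 (log2 fold change −3.14, SE 2.72, edgeR adjusted p 0.929). Pik3cb, a catalytic subunit, had 753 and 315 against 21 and 178 (log2 fold change −2.58, edgeR adjusted p 0.947), and Mtor had 257 and 1401 against 217 and 178 (log2 fold change −2.18, edgeR adjusted p 0.903). Single libraries weighed on these values. Mtor was at −0.44 without brain replicate 2 and at −2.99 without brain replicate 1. Pik3r2 was at −2.30 without dura mater replicate 1 and at −8.8 without dura mater replicate 2. In the same fits, Pik3cb was at −1.92 and at −4.49. Of the adaptors, Sos1 had 318 and 257 counts against 1206 and 1346 (log2 fold change 2.05, edgeR adjusted p 0.685) and Crk 807 and 883 against 587 and 778 (log2 fold change −0.42, edgeR adjusted p 1.00). Foxo4, a forkhead factor that Akt restrains, had 1350 and 2133 counts against 778 and 1348 (log2 fold change −0.85, edgeR adjusted p 0.946), while Foxo3 was listed at 0 in each library.

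Among 14 negative regulators, 10 had a log2 fold change above 0 and 4 below (median 0.23). Socs3, which dampens cytokine and insulin signals, came closest to the threshold of the pathway genes, with 3607 and 1056 counts in brain ECs against 53080 and 43201 in the dura mater. That is 164 ± 120 against 3302 ± 928 CPM (n = 2), for a log2 fold change of 4.33 (SE 0.63, adjusted p 0.0544 in edgeR and 1e-10 in DESeq2). Socs1 of the same family had 1 and 0 counts against 536 and 683 (ratio 1140, 95% counting interval 204 to 44900, edgeR adjusted p 0.466). Tsc1, a brake on mTOR, was at 0 in both brain libraries and at 1061 and 763 counts in the dura mater, a fold of at least 290 by the same floor (edgeR adjusted p 0.291). Inppl1, a lipid phosphatase named after its values were seen, was the 1 gene lower at an unadjusted p under 0.05, with 3561 and 5150 counts against 1865 and 2217 (log2 fold change −1.21, SE 0.49, edgeR adjusted p 0.466).

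**Figure D4:**
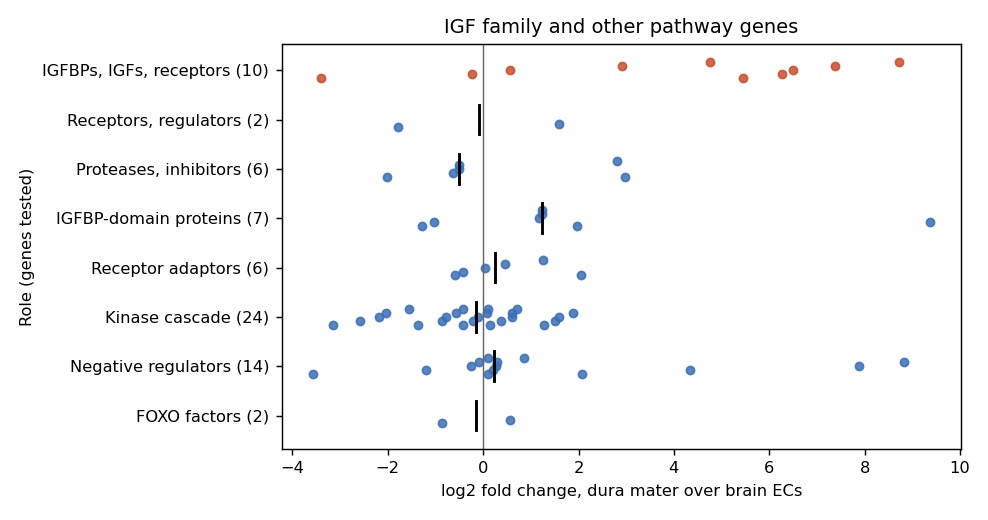
Log2 fold changes, dura mater over brain ECs, of the 10 IGF family genes (red) and of the other pathway genes tested (blue) by role, with the number of genes in brackets and the median of each blue group as a black line. The kinase cascade spreads around 0, and Esm1, Tsc1 and Socs1 lie farthest to the right among the blue points.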

How the data were processed

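RNA of sorted dura mater and brain ECs (2 libraries each) was sequenced from QuantSeq 3′-end libraries. The authors deposited raw counts per gene symbol, 1 table per library. The methods give TopHat for mapping and cufflinks for abundances, while the submitters' processing notes name Bowtie2, edgeR and mm10. The counting step, the annotation, strand and molecular identifiers are not given in the sources used here. Groups came from the sample titles.

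Counts were tested with edgeR 4.0.16 (R 4.3.3; quasi-likelihood, installed default dispersion, TMM, filterByExpr, tissue as the only term, prior count 2) with Benjamini-Hochberg adjustment over the 9347 genes tested at 0.05. SEs were derived as log2 fold change over root F. The cufflinks test needs alignments, which were not used here. DESeq2 1.42.0, limma-voom (3.58.1), other scalings, filters, thresholds and priors, a replicate block and each library left out were tried. The pan-endothelial scaling was added after seeing the data. Scripts were tested on simulated counts with far less spread between replicates than these data. That checks the code and not how the fits behave at the spread seen here.

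The members and all lists were chosen with earlier results of these data known. All members were named, together with pathway genes under the threshold and at most 3 per role with the largest non-overlapping difference at 10 CPM or more. A group at 0 was set to 3 counts per library for a fold. Positions are from GENCODE M21 (GRCm38), matched by symbol.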

Additional observations from a re-analysis of the deposited data

How the results depend on the processing

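Genes were called at an adjusted p under 0.05 except where another value is given. For all genes, the pathway list and the IGF family genes, edgeR gave 57, 0 and 3. DESeq2 gave 1259, 7 and 8, the newer edgeR dispersion estimate 306, 5 and 5, and no filter on low counts 326, 7 and 5. With at least 10 counts in every library the numbers were 141, 3 and 4, where 6 of the 10 IGF family genes were tested. Limma-voom gave 2 pathway genes. With the replicate number as a block they were 224, 4 and 5 (adding Igfbp3 and Igf2). What the replicate number stands for is not stated, so the numbers were not taken as pairs. Same-numbered libraries did not deviate alike (r −0.0208 over 9347 genes), which cannot show whether they shared mice or days. At an adjusted p under 0.01, 1 gene was called, and 0 of the IGF family. Leaving out 1 library in turn, which leaves 1 tissue with a lone library assumed to vary like the other tissue, gave 80 to 740 genes, 1 to 10 pathway genes and 2 to 5 IGF family genes. Over all genes this was 740 without brain replicate 1, 701 without brain replicate 2, 80 without dura mater replicate 1 and 97 without dura mater replicate 2. The cause of these shifts was not tested. Of 136 log2 fold changes of the IGF family genes under alternatives, 123 moved by less than the spread between replicates, 12 moved further without a change of sign, and 1 turned, that of Insr to 0.055 without dura mater replicate 2 (−0.77 without replicate 1). Under RLE, library size and pan-endothelial scaling the same 3 IGF family genes were called. With 2 libraries per tissue and a common biological coefficient of variation of 1.39, the spread between replicates limits precision. Igfbp2, Igfbp6 and Igf1, at a few counts in brain ECs and 19.2 to 38.4 CPM in the dura mater, carry SEs of 2.70 to 3.17. Igfbp5, at 8 and 3 brain counts but 222 CPM in the dura mater, has an SE of 1.04.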
